A study of Mus musculus with 8 samples.

Results

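The genotype difference in the IL-10 response is the amount by which the IL-10 effect on a gene in Ptpn1-deficient macrophages exceeded, or fell short of, its effect in wild-type macrophages. It was computed for each gene as the log2 ratio of IL-10 to mock in the knockout minus the same log2 ratio in wild type, after 26.7 units of signal had been added to every value. Genes with a mean signal of at least 26.7 units over the 4 groups were kept, which left 11400 of the 11996 genes in the table. A positive difference therefore means that the knockout's ratio was the higher of the 2, and it can arise from the cells given IL-10, from the mock-treated cells or from both.

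The macrophages came from C57BL/6 mice whose peritoneal cavity had been inflamed with thioglycolate, an irritant that recruits monocyte-derived macrophages. The mice were wild type or Ptpn1-/-. Cells were left to attach to plastic for 24 h and then received, over 4 h, either a mock treatment or IL-10 (100 ng/ml). Each of the 4 groups had 2 samples, 8 in all, and every group shares the elicitation and the attachment step. The age and sex of the mice, the part of Ptpn1 that was removed, the number of mice behind a sample and whether the same mice gave the mock and the IL-10 cells are not stated in the labels.

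The table used here holds 1 mean signal per gene and group and no value for a single sample. No difference below could thus be set against the spread between replicates, no test was possible, and each value is taken as the authors' group mean, without an SD or an n. Sequencing depth is unknown. Below, a signal given as running from 1 value to another runs from mock to IL-10 in the same genotype. Ptpn1 itself was listed at 4960.5 units in wild-type mock, 6736 in wild type with IL-10, 3836.5 in knockout mock and 5391.5 in the knockout with IL-10. Its signal was lower in the columns labelled knockout but not absent from them, which makes it a weak check of the labels, and its own difference in response was 0.05. In RNA from whole cultures, fewer cells of a type and less RNA per cell cannot be told apart.

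IL-10 binds a receptor made of the Il10ra and Il10rb chains, whose kinases JAK1 and TYK2 phosphorylate STAT3, and STAT3 then activates genes that restrain inflammation, among them the feedback inhibitor Socs3. Ptpn1 encodes PTP1B, a tyrosine phosphatase whose known substrates include JAK2 and TYK2. Interferons signal through JAK1 with TYK2 or JAK2, and the genes they induce often carry 1 of 2 short DNA elements, called GAS and ISRE. Such genes encode guanylate-binding proteins (GBPs) and immunity-related GTPases (IRGs), large GTPases that attack the membranes around intracellular microbes, together with antiviral effectors and sensors of foreign nucleic acid.

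A gene is called upward where the knockout's IL-10 ratio exceeded that of wild type by at least 1.5-fold (a difference of 0.585 or more) and downward where it fell short by as much. Of the 11400 genes, 57 were upward, or 0.5%, and 30 were downward, or 0.263%. At 2-fold the counts were 11 upward, or 0.0965%, and 4 downward, or 0.0351%. A pseudocount of 4 ppm of the column total in place of 1 ppm left 29 upward and 9 downward genes at 1.5-fold, and 0.25 ppm gave 112 and 91. The median difference over all kept genes was -0.00, the SD 0.18, and 87.2% of genes lay within 0.25 of 0. From the 1st to the 99th percentile the differences ran from -0.44 to 0.49.

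Interferon-inducible genes led the upward side. Of the 57 upward genes, 17 belonged to the lists of GBPs, IRGs, antiviral effectors and nucleic acid sensors, and none of the 30 downward genes did. These lists held 66 kept genes, and none of them was downward. Only 0.263% of all kept genes were downward, so a set of this size will often hold none, and nothing is read from that absence. Of the 66, 17 (25.8%) were upward, against 0.5% of all kept genes, and 59 lay above 0. Their median IL-10 log2 ratio was 0.16 in wild type and 0.51 in the knockout, and the median of their differences was 0.39.

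**Figure D1:**
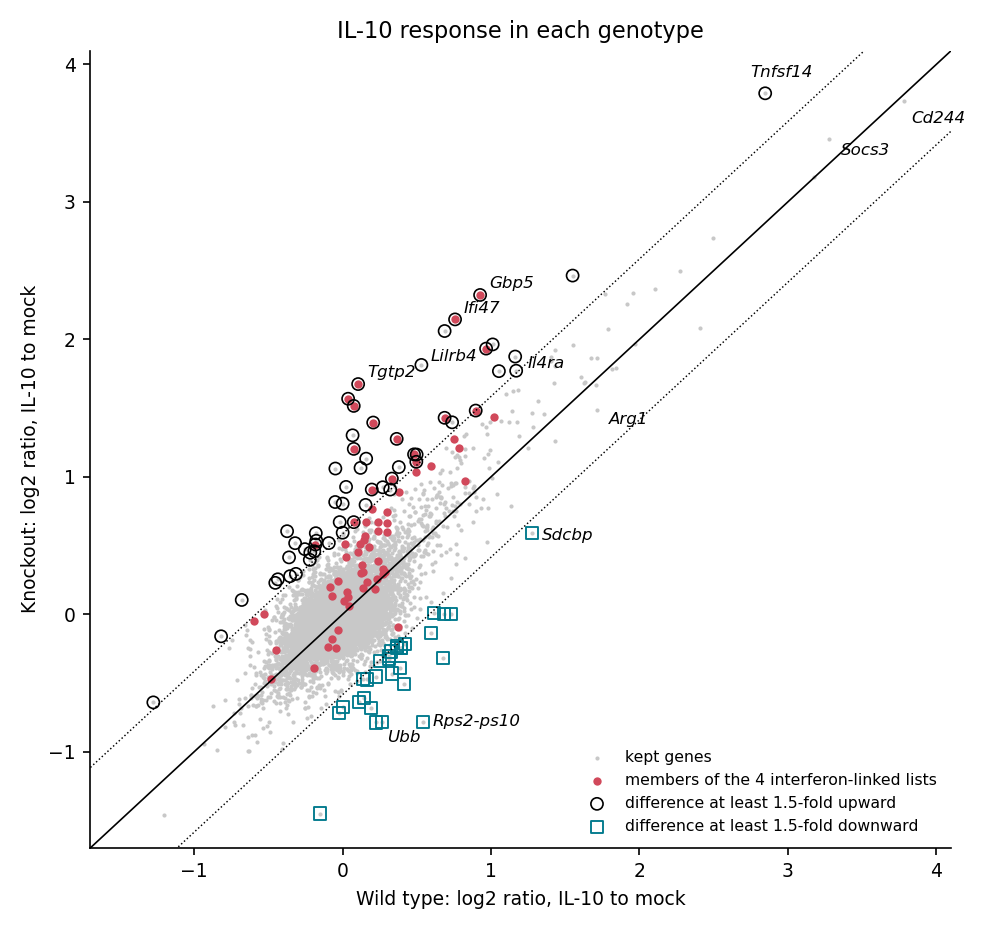
IL-10 response of 11400 genes in wild type (horizontal axis) and in the knockout (vertical axis), each as the log2 ratio of IL-10 to mock signal; 1 point is 1 gene, the solid line marks equal responses and the dotted lines 1.5-fold differences. The 57 upward genes (black circles) include 17 members of the interferon-linked lists (red points), which run from -0.18 to 0.97 in wild type and from 0.51 to 2.32 in the knockout.

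Upstream sequences are shown for upward genes of these families because they carry the ISRE letters. A window of 300 bases, 250 before the annotated start and 50 after it, was available for 39 of the 57 upward genes, in RefSeq promoter sequences of GRCm38.p6. The ISRE core was searched as GAAANNGAAA on both strands, where it reads TTTCNNTTTC on the other. It was found in 10 windows, those of Tgtp2, Gbp5, Gbp3, Gbp7, Ifit1, Isg15, Ifi203, Ifi205, Mnda and Pydc4. The pieces of 60 bases that follow are read along the strand of the gene. Capitals mark the ISRE core and, where present, the GAS core TTCNNNGAA, which reads the same on both strands. Where ISRE matches overlap, only those that share no base are marked.
Tgtp2 (chr11:49064248-49064307, minus strand): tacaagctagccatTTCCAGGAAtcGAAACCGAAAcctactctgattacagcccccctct
Gbp5 (chr3:142496744-142496803, plus strand): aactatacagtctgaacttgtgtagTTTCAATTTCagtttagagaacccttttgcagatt
Gbp3 (chr3:142559974-142560033, plus strand): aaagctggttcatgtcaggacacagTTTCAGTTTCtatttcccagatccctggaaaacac
Gbp7 (chr3:142530258-142530317, plus strand): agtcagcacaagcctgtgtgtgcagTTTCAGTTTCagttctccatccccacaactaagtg
Ifit1 (chr19:34640779-34640838, plus strand): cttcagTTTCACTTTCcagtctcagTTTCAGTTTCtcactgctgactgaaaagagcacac
Isg15 (chr4:156200850-156200909, minus strand): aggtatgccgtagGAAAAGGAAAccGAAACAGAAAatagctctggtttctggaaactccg

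In Tgtp2 a GAS core and an ISRE core lie side by side, and the pieces of Ifit1 and Isg15 each hold 2 marked ISRE cores. In Isg15 the stretch GAAAccGAAA, from the end of 1 marked core to the start of the next, also fits the core. The stretch TTTCtatttc in Gbp3, which begins inside the marked core, fits it as well. The Ifi200 genes, which encode sensors and regulators with PYRIN or HIN domains, are shown as a second set because their upstream pieces resemble each other. Mnda and Pydc4 of the table are matched to windows that RefSeq names Ifi211 and Ifi213.
Ifi205 (chr1:174031855-174031914, minus strand): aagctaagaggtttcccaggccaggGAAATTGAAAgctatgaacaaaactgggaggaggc
Mnda (chr1:173913049-173913108, minus strand): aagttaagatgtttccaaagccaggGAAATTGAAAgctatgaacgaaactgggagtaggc
Ifi203 (chr1:173942493-173942552, minus strand): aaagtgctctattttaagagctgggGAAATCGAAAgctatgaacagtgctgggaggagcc
Pydc4 (chr1:173599311-173599370, minus strand): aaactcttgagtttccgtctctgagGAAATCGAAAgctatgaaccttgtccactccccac

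The 4 pieces share the 13 bases gaaagctatgaac, which overlap the end of the ISRE core. That stretch occurs in 7 of all 32851 windows, those of Ifi203, Ifi205, Ifi206, Ifi208, Ifi211, Ifi213 and Mndal, all of which are Ifi200 family genes. The ISRE core occurred in 3.26% of the windows of all kept genes and in 2.98% of all windows, against 10 of 39 upward and none of 18 downward genes with a window. The GAS core occurred in 7.15% of the windows of kept genes and 7.02% of all windows, in 7 of 39 upward genes and in 1 of 18 downward genes, Ubb. Windows were found for 68.4% of upward and 60% of downward genes, below 80%, so the comparison of these shares is void and the matches are a description of the windows seen.

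Among the IRGs the largest differences were those of Tgtp2, Iigp1 and Ifi47. Tgtp2 (ENSMUSG00000078921; mm9 chromosome 11, 48870696 to 48877706, minus strand), a T-cell-specific GTPase that is also made by macrophages, was listed at 40 units in wild-type mock, 45 in wild type with IL-10, 98.5 in knockout mock and 373 in the knockout with IL-10. The IL-10 log2 ratio was thus 0.10 in wild type and 1.67 in the knockout, and the difference was 1.57. Wild-type cells showed almost no response, and the knockout started higher and went higher still. Iigp1 (Irga6) had the same layout at lower signal, from 11 to 13 units in wild-type cells and from 29.5 to 134 in knockout cells, a difference of 1.44. That difference was 1.80 at a pseudocount of 0.25 ppm but 0.80 at 4 ppm. Ifi47 (Irgd; mm9 chromosome 11, 48900541 to 48910474, plus strand) did respond in wild type, from 163 to 294 units, and went from 273 to 1299 units in the knockout, a difference of 1.39.

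All 8 kept IRGs lay above 0, with a median difference of 0.54, and 3 were upward. The regulatory members Irgm1, Irgm2 and Igtp stood just under the 1.5-fold limit, with differences of 0.54, 0.51 and 0.44. Irgm1 ran from 963.5 to 1366.5 units in wild-type cells and from 1404 to 2898 in knockout cells. 9930111J21Rik1, a related GTPase gene, reached 0.55 in another way, since it was lower with IL-10 in wild type, at 485 and 311.5 units, and nearly level in the knockout, at 379.5 and 366.

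Most GBPs, unlike Tgtp2 and Iigp1, were also higher with IL-10 in wild type. All 6 kept GBPs lay above 0, with a median difference of 0.78, and 5 were upward. At 1.5-fold, 4 of the 6 were higher with IL-10 in wild type and 6 of 6 in the knockout. Over all kept genes, 176 (1.54%) were at least 1.5-fold higher and 47 (0.412%) lower with IL-10 in wild type, and 264 (2.32%) were higher and 92 (0.807%) lower in the knockout.

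Gbp5 (ENSMUSG00000040264; mm9 chromosome 3, 142159898 to 142185308, plus strand), which promotes inflammasome activation, ran from 20.5 to 63 units in wild-type cells and from 26 to 237 in knockout cells, a difference of 1.40 that was 0.96, under 2-fold, with a pseudocount of 4 ppm. The mock values of the genotypes were close, and nearly all of the gap appeared with IL-10. Gbp3 showed the same arrangement, from 164 to 346 units in wild-type cells and from 204 to 854 in knockout cells, a difference of 0.97. Gbp6 was already higher in knockout mock, from 36 to 54 units in wild-type cells and from 114 to 314 in knockout cells, a difference of 0.91. Gbp9 and Gbp7 passed the limit narrowly, at 0.66 and 0.59, and Gbp2, the most abundant GBP with 2045.5 units in the knockout with IL-10, was at 0.52. With a pseudocount of 4 ppm Gbp9 and Gbp7 were under the limit, at 0.49 and 0.55.

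**Figure D2:**
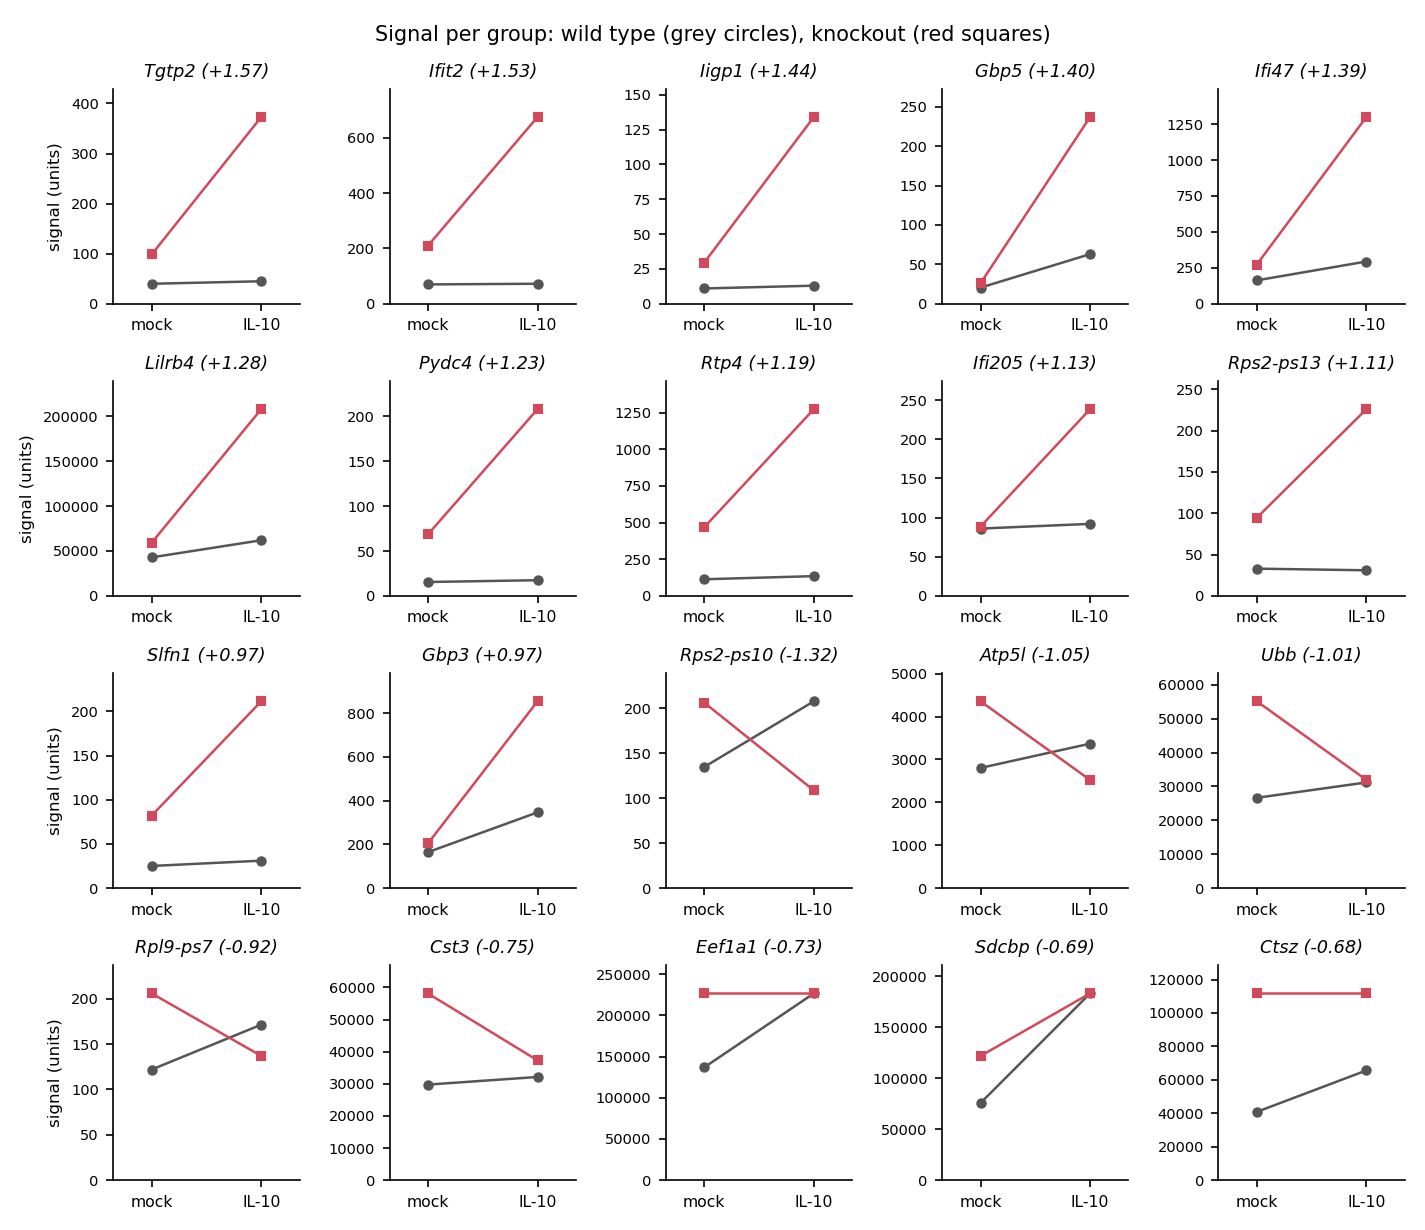
Authors' mean signal in mock and IL-10 groups (horizontal axis) for the 12 largest upward and 8 largest downward differences with at least 134 units in a group; grey circles are wild type, red squares the knockout, each panel has its own linear axis from 0, and the difference in log2 ratios is in the panel title. In Tgtp2, Ifit2, Iigp1, Pydc4 and Ifi205 the wild-type line is nearly flat while the knockout line climbs; in Atp5l, Ubb and Cst3 the knockout starts higher and drops.

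Of the 34 kept antiviral effectors, 6 were upward, Ifit2, Rtp4, Ifit1, Cmpk2, Oas2 and Isg15, and 31 lay above 0, with a median difference of 0.29. Cmpk2 fell under the limit with a pseudocount of 4 ppm, at 0.50. Isg15 passed the limit narrowly, at 0.60, and also fell under it with that pseudocount. Ifit2, whose product binds viral RNA, ran from 70 to 72.5 units in wild-type cells and from 210 to 675 in knockout cells, a difference of 1.53. Rtp4, a chaperone of receptors with antiviral activity, ran from 113.5 to 135 units in wild-type cells and from 468 to 1274 in knockout cells, a difference of 1.19. Both were high in knockout mock and higher again with IL-10, while wild type stayed low under both treatments.

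The effectors are also given by their mock level. Of the 34, 10 were at least 2-fold higher in knockout mock than in wild-type mock, and their differences in response ran from -0.20 to 1.53, with a median of 0.19, and 3 of them, Ifit2, Rtp4 and Ifit1, were upward. The other 24 ran from -0.47 to 0.69, with a median of 0.36, and 3 were upward. The mock columns also enter the difference in response, with the opposite sign, so nothing is read from this division.

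Ifi27l2a, an interferon-induced mitochondrial protein gene, had the largest mock gap of the 10. It ran from 394.5 to 463.5 units in wild-type cells and from 1623 to 1842 in knockout cells, and its difference in response was -0.04. Oas1a, a 2'-5'-oligoadenylate synthetase, ran from 1190 to 1404 units in wild-type cells and from 2594 to 3106 in knockout cells, a difference of 0.02. Ifit3, the neighbour of Ifit1 and Ifit2, ran from 23.5 to 32.5 units in wild-type cells and from 159 to 216 in knockout cells, a difference of 0.15. In these genes the knockout was higher under both treatments by about the same ratio, whereas in Ifit2 the ratio grew with IL-10. Usp18, which removes ISG15 and restrains the interferon receptor, and Isg20, an exonuclease, went the other way, with differences of -0.20 and -0.47.

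Of the 18 kept nucleic acid sensors, 3 were upward and all 3 belong to the Ifi200 family whose upstream pieces are printed above. Ifi205 ran from 86 to 92 units in wild-type cells and from 88.5 to 238.5 in knockout cells, a difference of 1.13, with equal mock levels in the genotypes. Mnda, from 625 to 1022.5 units in wild-type cells and from 1028 to 2813.5 in knockout cells, had a difference of 0.74, and Ifi203, from 628.5 to 897.5 units in wild-type cells and from 993 to 2172.5 in knockout cells, had 0.61. Mnda and Ifi203 overlap the Mndal row on the same strand, and summed with it they gave 0.67 and 0.58.

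Ifi204, Pyhin1 and Mndal, of the same family, had differences of 0.43, 0.44 and 0.53. The RNA helicase sensors Dhx58, Ddx58 and Ifih1 had 0.49, 0.39 and 0.31. The Toll-like receptors of nucleic acid were close to or below 0, with Tlr3 at 0.02, Tlr9 at 0.02, Tlr13 at -0.08 and Tlr7 at -0.14, and so were the adaptor Mavs at -0.20 and Aim2 at -0.11. Pydc4, a PYRIN-only gene of the family counted here among the inflammasome genes, ran from 15.5 to 17.5 units in wild-type cells and from 68.5 to 208 in knockout cells, a difference of 1.23 that was 0.82 with a pseudocount of 4 ppm.

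**Figure D3:**
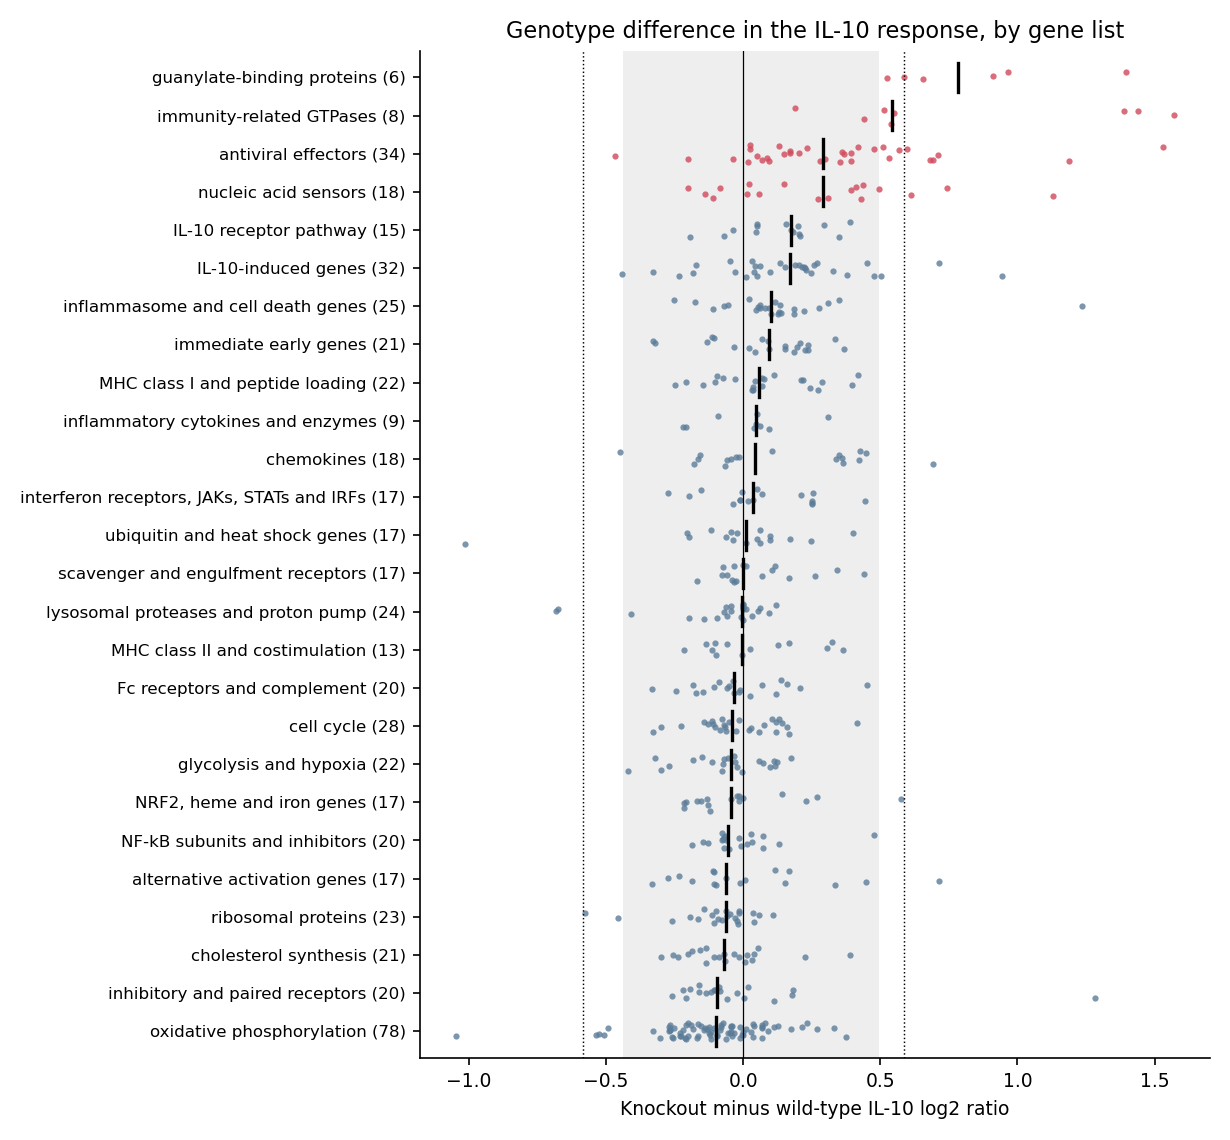
Genotype difference in the IL-10 response (horizontal axis, log2) for each kept member of 26 gene lists; 1 point is 1 gene, black bars are list medians, the number of kept members is in parentheses, the grey band runs from the 1st to the 99th percentile of all 11400 genes and dotted lines mark 1.5-fold. The GBPs, IRGs, antiviral effectors and sensors (red) have the highest medians, from 0.78 to 0.29, and oxidative phosphorylation the lowest, at -0.10.

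Genes for interferon signalling were near the background as a list. The median difference of the 17 kept receptors, JAKs, STATs and IRFs was 0.04. None of them was upward or downward, where 0.5% and 0.263% of all kept genes were, so nothing is read from that absence. Stat2 was nearest to the limit, from 716 to 951 units in wild-type cells and from 832.5 to 1511 in knockout cells, a difference of 0.44. Irf2, Jak2 and Irf9 stood between 0.25 and 0.26 and Irf1 at 0.21. Irf7 was more abundant in the knockout under both treatments, from 625 to 718 units in wild-type cells and from 2124 to 2517 in knockout cells, and its difference was 0.05. The receptor chains Ifnar1, Ifnar2, Ifngr1 and Ifngr2 lay between -0.28 and 0.02. None of the 20 interferon genes on the ligand list had a value analysed here.

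The IL-10 receptor pathway lay somewhat above the background as a list. Of its 15 kept members none was upward or downward, where 0.5% and 0.263% of all kept genes were. Of the 15, 12 lay above 0, against 48.7% of all kept genes. The median difference was 0.18, below those of the 4 interferon-linked lists and above the -0.00 of all kept genes. Socs3 ran from 380.5 to 3924.5 units in wild-type cells and from 432 to 5021 in knockout cells, so its log2 ratios were 3.28 and 3.46 and the difference was 0.18. Stat3 ran from 4330 to 8651 units in wild-type cells and from 3678 to 8460 in knockout cells, a difference of 0.20. The receptor chains Il10ra and Il10rb were at -0.07 and -0.04. Of the other cytokine feedback inhibitors, Socs2 had a difference of 0.39, Cish 0.35 and Socs1 0.30. With a pseudocount of 4 ppm Cish and Socs1, both low in signal, had 0.16 and 0.18, below Socs3 and Stat3 at 0.20 each. Socs2 ran from 59 to 118 units in wild-type cells and from 77.5 to 204 in knockout cells.

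Of 32 kept genes on the IL-10-induced list, 2 were upward, where 0.5% of all kept genes were. None was downward, where 0.263% of all kept genes were, so nothing is read from that absence. Of the 32, 25 lay above 0, against 48.7% of all kept genes, and the median difference was 0.17. Their median IL-10 log2 ratio was 0.81 in wild type and 0.94 in the knockout. Tnfsf14 (LIGHT), a ligand of the TNF family, ran from 5 to 201.5 units in wild-type cells and from 8 to 453.5 in knockout cells, a difference of 0.94. Il4ra, the IL-4 receptor alpha chain (ENSMUSG00000030748; mm9 chromosome 7, 132695796 to 132722986, plus strand), ran from 2056.5 to 4637 units in wild-type cells and from 2126 to 7868.5 in knockout cells, a difference of 0.71. Mock levels of both genes were nearly equal in the genotypes. Il4ra had the largest upward difference among genes between 1000 and 20000 units apart from Mnda and Mid1.

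Il21r, Bcl3 and Fcgr2b followed at 0.50, 0.48 and 0.45. Bcl3, an atypical NF-kB regulator, ran from 825 to 1862 units in wild-type cells and from 803.5 to 2537 in knockout cells. Fcgr2b, the inhibitory Fc receptor, ran from 5784 to 13145 units in wild-type cells and from 7139 to 22174 in knockout cells. Other strongly induced genes had near-equal log2 ratios in the genotypes: Cd244 had a difference of -0.05 and the endothelin receptor Ednrb 0.01, although each gave a log2 ratio above 3 in both genotypes. Nfil3 and Il1rn had differences of 0.23 and -0.17.

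Arg1, which encodes arginase 1, shows how the scale sets the direction. It ran from 951 to 3187 units in wild-type cells and from 1800.5 to 5080.5 in knockout cells, so the log2 difference was -0.23, while wild-type cells gained 2236 units with IL-10 and knockout cells 3280. Fcgr1 behaved in the same way, with a log2 difference of -0.18 and gains of 1094 and 1356.5 units. Over all kept genes 377 (3.31%) differed in sign between the log2 and the linear scale. All 57 upward and 30 downward genes had the same sign on both.

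The largest upward differences also took in genes outside the lists described so far. Lilrb4, an inhibitory receptor of myeloid cells (ENSMUSG00000062593; mm9 chromosome 10, 51210824 to 51216419, plus strand), ran from 42852 to 61912 units in wild-type cells and from 59070.5 to 207753 in knockout cells, a difference of 1.28. It lies above 20000 units, where neighbouring values are far apart and the same values recur in several genes and groups: Msn and Sdcbp both hold 75723 and 183406 units. A fold there may be a step between ranks. Its near copy Gp49a ran from 20737.5 to 30716 units in wild-type cells and from 27189 to 38632 in knockout cells, a difference of -0.06, and the sum of both rows gave 0.97. Reads of such copies can be assigned to either, so the split between the rows is uncertain. Slfn1, of the Schlafen family of growth regulators, ran from 25 to 31 units in wild-type cells and from 82 to 211.5 in knockout cells, a difference of 0.97.

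The following genes were chosen after their values were seen. Niacr1 (Hcar2), the receptor for niacin and beta-hydroxybutyrate, ran from 11 to 34 units in wild-type cells and from 10.5 to 128.5 in knockout cells, a difference of 1.37. P2ry13, a receptor for ADP, had a difference of 0.95 and Nrg1, a ligand of ErbB receptors, 0.91. Niacr1 reached 134 units in no group, and Nrg1 fell under the limit with a pseudocount of 4 ppm. All 3 had near-equal mock levels in the genotypes and a response in each, as Gbp5, Tnfsf14 and Il4ra did. Ly6a (Sca-1), an interferon-inducible surface protein, had the other layout, from 13.5 to 17 units in wild-type cells and from 107.5 to 254 in knockout cells, a difference of 0.94. Ccl7, a monocyte-attracting chemokine, was the 1 upward member of 18 kept chemokines, from 190 to 187 units in wild-type cells and from 169.5 to 285.5 in knockout cells, a difference of 0.69 that was 0.52 with a pseudocount of 4 ppm.

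The 57 upward genes fell into classes by their own responses at 1.5-fold. In 28 the gene was higher with IL-10 in the knockout only, and Tgtp2, Ifit2, Rtp4 and Ifi205 belong here. In 13 it was higher in both genotypes, with Gbp5, Ifi47, Il4ra and Tnfsf14 among them. In 13 neither genotype passed 1.5-fold alone. In 2, Inpp5j and 5031425F14Rik, it was lower in wild type only, and in 1, Msn, it was lower in both. The medians of the upward genes were 0.07 for the wild-type response and 0.99 for the knockout response. These classes describe values that define the upward genes and do not support the difference.

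The 30 downward genes had another layout. In 15 neither genotype passed 1.5-fold alone, in 9 the gene was lower with IL-10 in the knockout only, in 5 it was higher in wild type only, and in 1, Sdcbp, it was higher in both. Knockout mock stood above wild-type mock in 27 of the 30, against 33 of the 57 upward genes and 53.5% of all kept genes. The gap between genotypes was the larger in mock for 21 of the 30 downward genes, and the larger with IL-10 for 47 of the 57 upward genes. The median log2 gap of the downward genes was 0.42 in mock and -0.28 with IL-10, and that of the upward genes 0.09 and 0.92. Most downward genes thus had their larger gap in the mock cells, and most upward genes in the cells given IL-10. Both gaps are part of the difference that chose these genes, so the counts are a description.

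**Figure D4:**
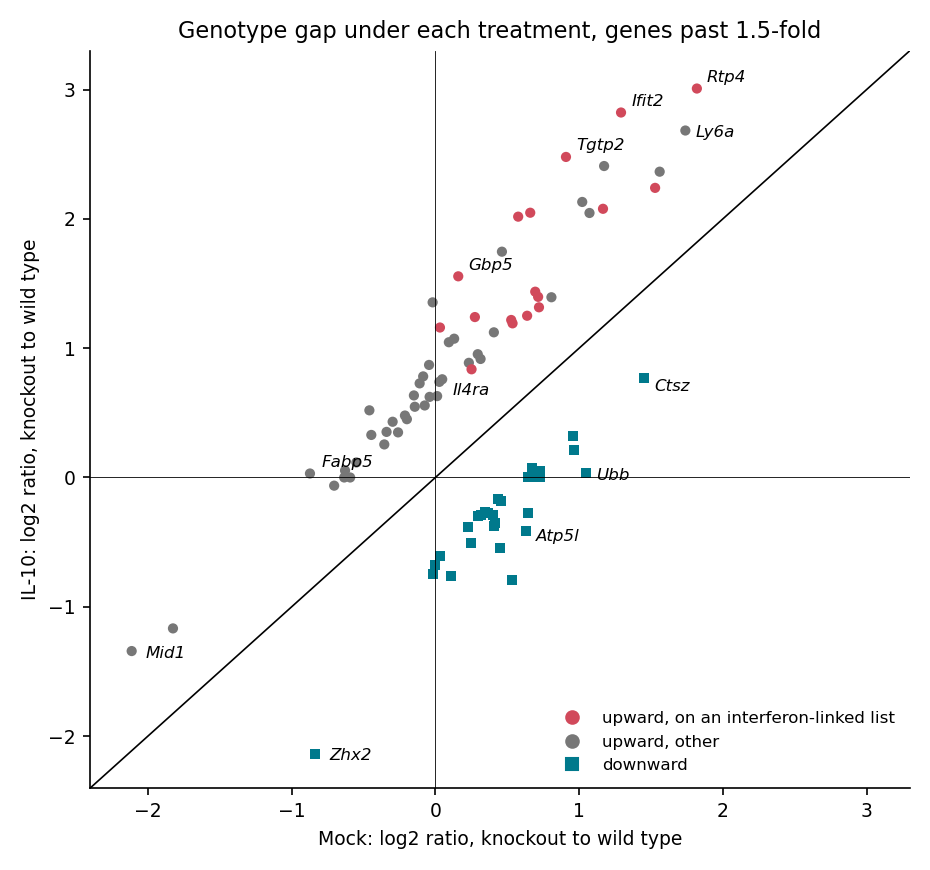
Knockout to wild-type log2 ratio in mock (horizontal axis) and with IL-10 (vertical axis) for the 57 upward genes (circles, red where the gene is on an interferon-linked list) and 30 downward genes (squares); on the solid line the gap would be equal under both treatments. Red points lie right of 0 on the horizontal axis and between 0.84 and 3.01 on the vertical one; 27 of 30 squares lie right of 0.

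Atp5l, a subunit of ATP synthase, ran from 2803 to 3370 units in wild-type cells and from 4359 to 2522 in knockout cells, a difference of -1.05. Ubb, a polyubiquitin gene, ran from 26635 to 31176.5 units in wild-type cells and from 55131 to 31920 in knockout cells, a difference of -1.01. Cst3, the protease inhibitor cystatin C, ran from 29756 to 32132.5 units in wild-type cells and from 58156.5 to 37292 in knockout cells, a difference of -0.75. In each the knockout mock column was the highest of the 4, and with IL-10 the genotypes were closer to each other than in mock. Ubb and Cst3, like Lilrb4, have mean signals above 20000 units, where a fold may be a step between ranks.

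The ribosomal pseudogene Rpl9-ps7, from 122 to 171.5 units in wild-type cells and from 206 to 137 in knockout cells, had a difference of -0.92. Sdcbp, Ctsz and Eef1a1, at -0.69, -0.68 and -0.73, lie above 20000 units and hold values that many genes share. Eef1a1, a translation elongation factor, was listed at 136851.5 units in wild-type mock and at 226656.5 in each of the other groups.

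Some of the largest differences on both sides belong to pairs of overlapping or near-identical rows, between which reads can be split. Rps2-ps10 and Rps2-ps13, pseudogenes of 1 ribosomal protein gene, had differences of -1.32 and 1.11, and their sum, from 167.5 to 238.5 units in wild-type cells and from 300.5 to 334.5 in knockout cells, had -0.31. Zhx2, a transcriptional repressor, had -1.30, and the row ENSMUSG00000093496, which overlaps it on the same strand, had 0.80. Zhx2 was listed at 108.5, 95, 49 and 1 units and its partner at 1, 1, 55 and 116, in the order wild-type mock, wild type with IL-10, knockout mock and knockout with IL-10. Their sum was 109.5, 96, 104 and 117 units, a difference of 0.29. Neither pair keeps a 1.5-fold difference once summed.

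Mid1 and G530011O06Rik overlap on opposite strands of the X chromosome, and whether the authors' counting used strand is not given in the sources used here. Mid1, a ubiquitin ligase gene, ran from 2600 to 2290 units in wild-type cells and from 580.5 to 887 in knockout cells, a difference of 0.77, and G530011O06Rik had 0.60. Their sum had a difference of 1.18. In all, 10 of the 57 upward and 6 of the 30 downward rows overlap another row.

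Upward genes lay next to each other at 6 places, taking upward genes within 250 kb of each other on mm9. Tgtp2 and Ifi47 lie at chromosome 11, 48870696 to 48910474. Gbp5, Gbp7 and Gbp3 lie at chromosome 3, 142159898 to 142228018, and Gbp9 and Gbp6 at chromosome 5, 105507413 to 105722718. Mnda, Ifi203 and Ifi205 lie at chromosome 1, 175826486 to 175961886, with Mndal, which overlaps Mnda and Ifi203, at 0.53. Ifit2 and Ifit1 lie at chromosome 19, 34625200 to 34724499, on either side of Ifit3 at 0.15. The sixth place is the overlapping pair Mid1 and G530011O06Rik. The first 5 are clusters of related genes. All their kept genes lay above 0, which the choice of upward genes fixed for all but Mndal and Ifit3, so nothing is read from it.

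The spread of the difference was not the same at all signal levels. Among the 1961 genes with a mean under 5 ppm of the column total (134 units) the SD was 0.26, and 30 were upward and 19 downward. Among the 3559 genes between 1000 and 5000 units the SD was 0.13, with 5 upward and 1 downward. None of the 701 genes between 5000 and 20000 units passed 1.5-fold in either direction. Above 20000 units, where 146 genes lie, the SD was 0.28, with 4 upward and 6 downward. Of the upward genes 19 and of the downward genes 18 reached 134 units in no group. Just inside the filter, Spata24, Ptprk and Cables1 (mean signal 26.75 units) had differences of -0.34, 0.03 and 0.16, and just outside it Samd5, Pkp2 and Lrp3 (26.625 units) had 0.01, 0.12 and 0.15.

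**Figure D5:**
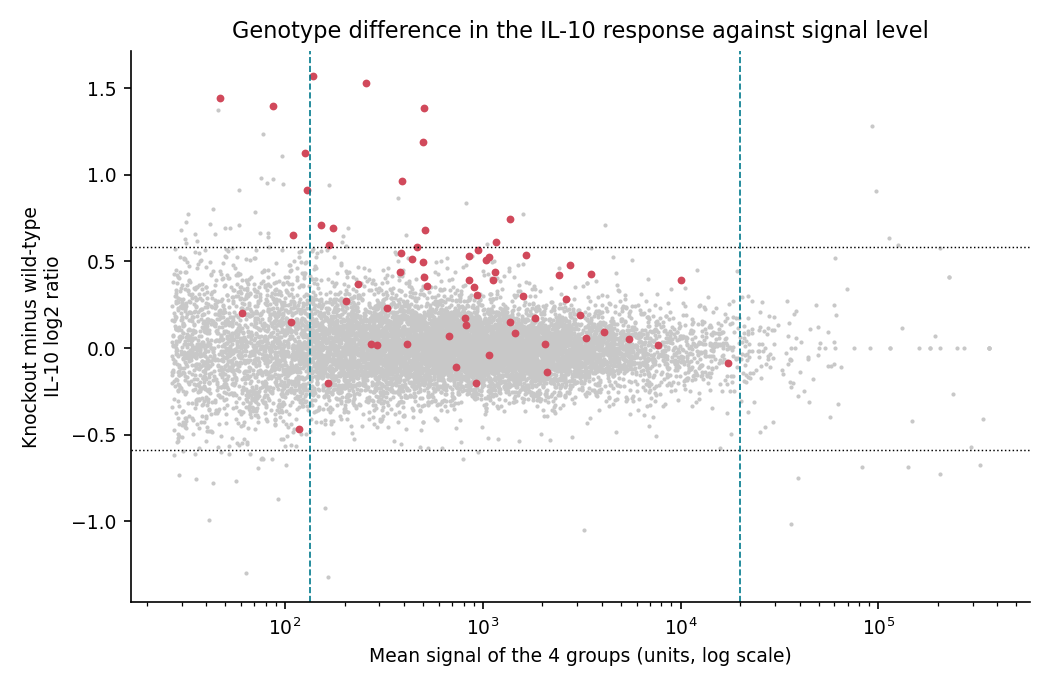
Genotype difference in the IL-10 response (vertical axis, log2) against the mean signal of the 4 groups (horizontal axis, log scale) for 11400 genes; red points are members of the 4 interferon-linked lists, dotted lines mark 1.5-fold and dashed lines 134 and 20000 units. The grey cloud is widest at both ends, with SDs of 0.26 and 0.28 against 0.13 in the middle, and 59 of 66 red points lie above 0.

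Most other gene groups of the macrophage lay near the background. Of the 26 lists with kept members, 18 had a median within 0.1 of 0. In 14 lists no gene was upward or downward, among them the IL-10 receptor pathway with its median of 0.18. Only 0.5% and 0.263% of all kept genes were upward and downward, so a short list will often hold none. MHC class I and peptide loading genes had a median of 0.06, with none of 22 past 1.5-fold, although Tap1 and Nlrc5 stood at 0.42 and 0.40. The median was -0.01 over 13 genes of MHC class II and costimulation. Inflammatory cytokines and enzymes had 0.05 over 9 kept of 20 genes, and Tnf, from 350.5 to 438 units in wild-type cells and from 507 to 654.5 in knockout cells, had 0.05. Chemokines had 0.04, alternative activation genes -0.06, NF-kB subunits and inhibitors -0.06, cholesterol synthesis genes -0.07 and cell cycle genes -0.04. Inflammasome and cell death genes had 0.10, with 20 of 25 above 0 and Pydc4 the 1 upward member. Immediate early genes also had 0.10, with 15 of 21 above 0.

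Oxidative phosphorylation genes lay below 0 in 59 of 78 cases, with a median of -0.10, and Atp5l was the 1 downward member. Ndufc2, Ndufa2, Cox4i1 and Uqcrh followed at -0.54, -0.53, -0.51 and -0.49, each with its highest signal in knockout mock. Ribosomal protein genes lay below 0 in 19 of 23 cases, with a median of -0.06. Transcript length moved with these values: across the 11222 genes with a length, Spearman's rho of the difference with the longest transcript was 0.26, a description over genes, which are not independent replicates. With the trend over length subtracted, the medians were -0.05 for oxidative phosphorylation, with 32 of 78 above 0, and -0.00 for ribosomal proteins, with 11 of 23 above 0. The GBP median was 0.77 and the IRG median 0.54 after the same step.

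Markers of cell types that a peritoneal culture could hold were followed beside the interferon-inducible genes. All 6 macrophage markers had a value. None was upward or downward, where 0.5% and 0.263% of all kept genes were, so nothing is read from that absence. Emr1 (F4/80) stood between 10088.5 and 11367 units and Csf1r, the receptor for macrophage colony-stimulating factor, between 13685 and 16138 in the 4 groups. Lyz2 (lysozyme) was not level, at 362618, 272813, 136851.5 and 136851.5 units in the order wild-type mock, wild type with IL-10, knockout mock and knockout with IL-10, a difference of 0.41. Its values lie above 20000 units, where a fold may be a step between ranks, and 362618 is the highest value of every column. Itgam (CD11b) was at 22587, 20763, 17324 and 17992 units in that order, a difference of 0.18. The 6 monocyte markers summed to 1017 units in wild-type mock, 1514 in wild type with IL-10, 1388 in knockout mock and 1885 in the knockout with IL-10, and the median of their differences was 0.02. Most of this sum came from Ccr2, with a difference of 0.00, F13a1, at -0.33, and Cx3cr1, at -0.35. Ly6c2 (15, 13.5, 100 and 105.5 units in the same order) and Plac8 (10, 14, 40 and 62 units) were several-fold higher in the knockout under both treatments, with differences of 0.11 and 0.26. The 8 markers of mesothelium and fibroblasts summed to 30857.5, 29462, 18622.5 and 18380.5 units in the same order, with a median difference of 0.00. Resident peritoneal macrophage markers had a median difference of 0.07. Gata6 (700, 628, 408 and 388 units in that order), Selp and Ltbp1 were lower in the knockout under both treatments. Cxcl13 (944, 1046.5, 1765 and 1749 units) and, slightly, Alox15 were higher, and Timd4 had no value analysed here. Markers of neutrophils, dendritic cells, mast cells, eosinophils and erythroid cells reached at most 477 units in a group. None of the 5 NK cell markers had a value analysed here, nor did Cd3e, Cd3d, Cd3g, Cd4 and Cd8a among the T cell markers. The T cell markers with a value, Lck and Il7r, had differences of 0.29 and 0.20, and Lck ran from 11.5 to 105 units in wild-type cells and from 10 to 128 in knockout cells. Cd79b, a B cell receptor chain, was downward at -0.61, with no more than 69.5 units in a group. The part of the cell makeup in the differences was not tested.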

How the data were processed

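RNA of 8 samples, 2 in each of 4 groups by genotype and treatment, was sequenced by the submitters. The submitters' processing notes name RSEM and Bowtie, with no version, and the mm9 genome. The authors deposited a normalized expression signal as 1 value per gene and group, named CPM by them and taken here as a mean; each column sums to 26705598, its highest value is 362618 in every column, and all values are multiples of 0.5, so they are not CPM. The step that normalized them is not given in the sources used here. From the numbers alone, it may have forced the libraries to share 1 set of values before averaging, and the highest signals would then be steps between ranks. Equal totals remove any change common to most genes.

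The pseudocount and the filter on low values are 26.7 units each, 1 ppm of the column total. It shrinks the log2 ratios of low genes, and can move their difference either way. The tests planned over samples were not run because the values analysed here are group means, and folds of 1.5 and 2 serve as limits. The gene lists, the limits and the genes described were chosen with earlier results of these data known. Genes are named where they are among the 12 largest upward or 8 largest downward differences with 134 units in a group, among 11 fixed genes, or among the 5 largest of a list; other genes are named to describe a list, a pair of rows or a marker, and 1 item is not reported here. For 38 names on more than 1 row, lists use the row with the highest mean. Promoters were matched by Ensembl identifier, symbol or synonym. Scripts used Python 3.11.15, numpy 2.4.6, pandas 2.3.3, scipy 1.17.1 and statsmodels 0.14.6, and were tested on simulated data.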

Additional observations from a re-analysis of the deposited data

How the results depend on the processing

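With a pseudocount of 0.25 ppm, 112 genes were upward and 91 downward at 1.5-fold, and 19 and 11 at 2-fold; 56 of the 57 and 30 of the 30 genes were among them. With 4 ppm the counts were 29 and 9 at 1.5-fold, and 5 and 2 at 2-fold. Of the genes with a mean of at least 5 ppm, 27 were upward and 11 downward, and 5 were upward at 2-fold. With the trend over transcript length subtracted, 2 genes were downward at 2-fold, and 52 of the 57 upward and 19 of the 30 downward genes were shared at 1.5-fold. The median of the guanylate-binding proteins was 0.65 with 4 ppm and 0.59 at a mean of at least 5 ppm. The other 102 list medians computed under alternatives moved by less than 0.1. Among the genes named by the rule, Gbp9, Gbp7, Cmpk2 and Ccl7 went under 1.5-fold with 4 ppm, Ccl24 (0.61) and Tyro3 (0.71) went past it with 0.25 ppm, and no difference past the limit changed sign. The cause of these shifts was not tested, apart from the fewer genes that stricter filters leave. No paired analysis was possible because the columns hold group means and carry no replicate number; the replicate block and the fits that leave out a replicate were therefore not run. Depth and replicate error are unknown, so small differences, genes under 134 units and genes above 20000 units are the least secure.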

Other observations

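Gene families formed by name stem were ranked after the data were seen, over the 190 families with at least 8 kept genes. Signals are given from mock to IL-10 in each genotype. The Schlafen family stood first, with all 8 kept members above 0 and a median difference of 0.26. Slfn4, an interferon-inducible myeloid gene, ran from 137 to 130.5 units in wild-type cells and from 283.5 to 366.5 in knockout cells, a difference of 0.40. Slfn8 ran from 813 to 851.5 units in wild-type cells and from 1159 to 1511 in knockout cells, a difference of 0.31, and Slfn5, from 3429 to 3786 units in wild-type cells and from 3854 to 5054.5 in knockout cells, had 0.25. The lowest value in the family was that of Slfn2, at 0.04.

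The C-type lectins stood last, with 11 of 15 members below 0 and a median of -0.16, and none of them past 1.5-fold. Clec4e (Mincle), a receptor for mycobacterial glycolipid, ran from 587 to 816 units in wild-type cells and from 869.5 to 1029 in knockout cells, a difference of -0.22. Clec4a1, from 703 to 760 units in wild-type cells and from 1316.5 to 1268 in knockout cells, had -0.16, and Clec4a3 had -0.21. Clec10a, a galactose-type lectin, was at 0.15. The Commd family, which regulates endosomal sorting, came next to last, with 9 of 10 members below 0 and a median of -0.16. These families were picked for their rank and the values are a description.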
